A study of Mus musculus with 12 samples.

Results

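The genes described here encode the receptor and effector machinery of apoptosis and necroptosis: FAS, TNFSF10, TNFRSF10B, CASP8, CFLAR, RIPK1, RIPK3 and MLKL. They were chosen by name, as the 8 rows with these symbols among the 23636 symbols of an expression table of CT26 cells. The choice was made with earlier results of these data known. CT26 is a line of murine colon carcinoma cells, and the study asked which genes the chemokine CX3CL1 changes in these cells, alone and beside IFN-γ. The table held 12 libraries, 3 for each of 4 treatments: CX3CL1 at 2 µg/ml, IFN-γ at 100 ng/ml, the combination (CX3CL1+IFN-γ) and No treatment. The labels give the agents and call the libraries of a group biological replicates; the doses and the time of 8 hours come from the study's methods and legends, and all groups were the same cultured line with no genetic change named. One passage of the study's text mentions TNF-α together with IFN-γ for cells that then received CX3CL1, whereas the labels and the legend name IFN-γ alone; the groups here follow the labels, and whether TNF-α was present in the IFN-γ groups could not be settled. Nothing in the labels says whether the replicates were separate cultures, so p-values set differences against the spread between these libraries and no wider one.

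In this pathway a ligand such as FAS ligand or TRAIL (the product of TNFSF10) binds a death receptor (FAS, or the TRAIL receptor DR5 encoded by TNFRSF10B), and the receptor recruits the adaptor FADD and the initiator protease caspase-8. CFLAR encodes c-FLIP, a caspase-8-like protein that limits this activation. RIPK1 is a kinase of the TNF receptor complex that can lead to survival signaling, to caspase-8, or, when caspase-8 is held back, to RIPK3. RIPK3 then phosphorylates MLKL, which breaks the plasma membrane in necroptosis. Interferons are known inducers of several of these genes, MLKL and TRAIL among them.

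Expression is given in TPM, a measure of transcript abundance relative to the whole library, a scale that corrects for transcript length, so that levels can be set side by side between genes. Differences are given as log2 fold changes of TPM + 1 from a limma fit over 11878 genes (mean over all libraries 0.2 TPM or more), and a gene was called changed at a Benjamini-Hochberg adjusted p under 0.05. On this scale the fold change of a gene at low TPM is understated. Of the 8 genes, 7 passed the filter of 0.2 TPM. TNFSF10 did so through its treated groups, as its untreated mean was 0.0646 TPM. In the fit each gene's spread was estimated over all groups, so groups outside a comparison also bear on its p-value. Between replicates, Pearson's r of log2(TPM + 1) over the tested genes ran from 0.984 to 0.996. Of 8 epithelial markers, KRT18 and KRT20 reached a mean of 1 TPM and EPCAM was listed at 0 in every library; the summed level of the 8 ran from 51.2 to 64.7 TPM without treatment, from 33.6 to 44.4 with CX3CL1, from 35.7 to 41.8 with IFN-γ and from 24.9 to 33.2 with both. Of 8 leukocyte markers, S100A8 reached a mean of 1 TPM, CD3E was listed at 0 in every library, and the sum of the 8 did not exceed 7.12 TPM in any library. Whether the lower epithelial sums of the treated groups had a part in the results was not tested.

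FAS, TNFSF10 and MLKL rose with IFN-γ, and FAS rose with CX3CL1 as well. The receptor gene TNFRSF10B, the protease gene CASP8, its regulator CFLAR and the kinase gene RIPK1 were expressed in every library at 26.4 to 67.9 TPM and passed the test in no comparison. RIPK3 was listed at 0 in every library. Untreated CT26 cells thus held MLKL at 104 ± 9.33 TPM (SD, n = 3), CFLAR at 43.2 ± 8.98, TNFRSF10B at 32.9 ± 7.42, CASP8 at 30.8 ± 2.45 and RIPK1 at 30.3 ± 2.97, while FAS stood at 0.530 ± 0.209 and TNFSF10 at 0.0646 ± 0.0499. The levels of TNFRSF10B, CASP8 and RIPK1 overlapped among the untreated libraries, and CFLAR overlapped with TNFRSF10B.

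**Figure D1:**
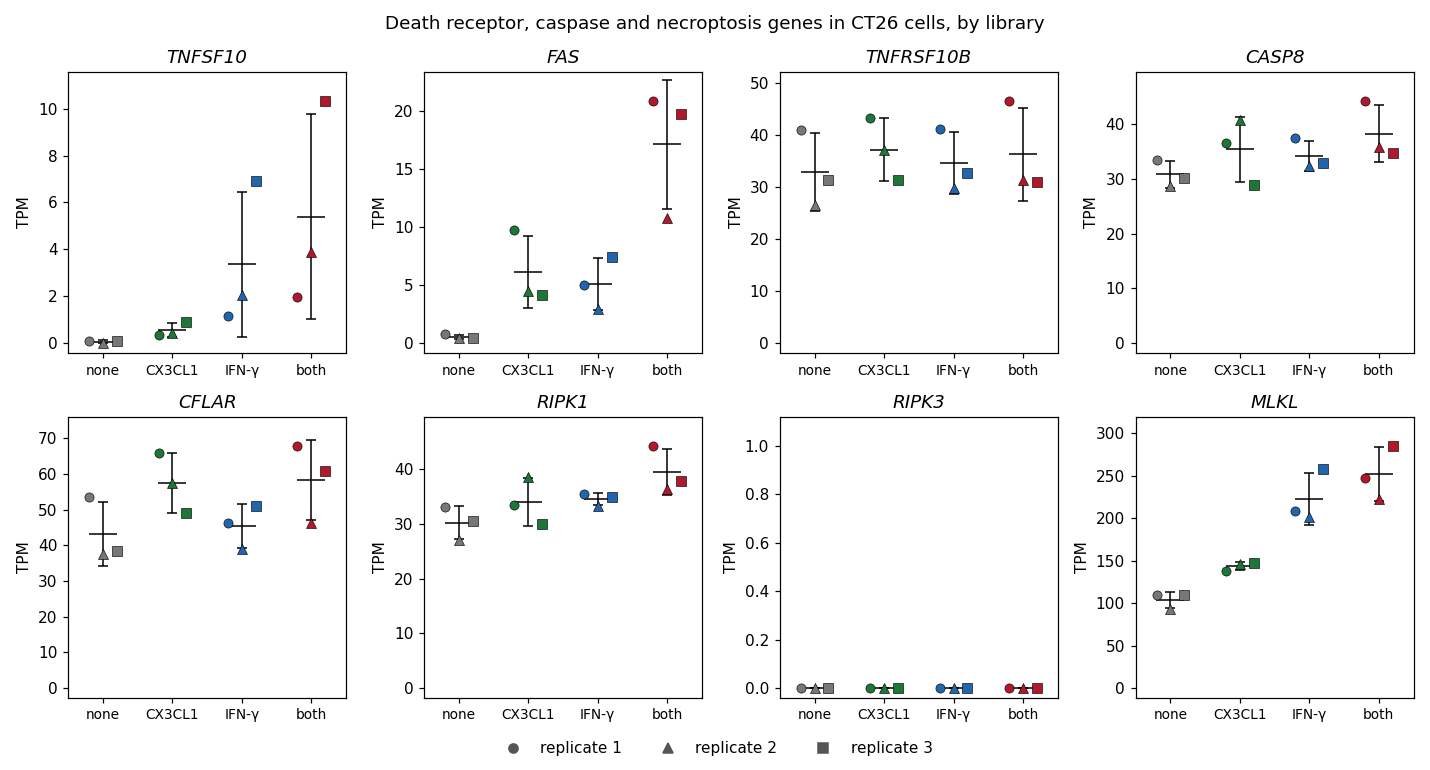
TPM (linear axis, a scale of its own in each panel) of the 8 genes in each of the 12 libraries, by treatment. Colors mark the treatment, marker shapes the replicate number, and black bars the mean and SD of 3 libraries. FAS, TNFSF10 and MLKL stand higher in all IFN-γ libraries than in all untreated libraries, and RIPK3 lies at 0 throughout.

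With CX3CL1 alone, FAS passed the test and the other 6 tested genes did not, although all CX3CL1 libraries lay above all untreated ones for MLKL and TNFSF10 too. How many of all genes separate in this way was not counted, here or below. For 3 libraries against 3, the smallest two-sided p of an exact permutation test is 0.1, so a separation alone is weak evidence. In this comparison 1 of 7 was called higher and none lower, beside 1.78% higher and 0.168% lower over all genes tested. IFN-γ alone raised 3 of 7 (FAS, TNFSF10 and MLKL) and lowered none, beside 5.91% and 1.94%; with 1 library left out this count was 3 without IFN-γ replicate 1 and 2 without each of the other 5. IFN-γ given with CX3CL1 raised the same 3 over CX3CL1 alone, beside 3.76% of all genes higher and 0.935% lower. This count of 3 held in none of the 6 fits with a library left out: it fell to 1 without CX3CL1 replicate 2, CX3CL1 replicate 3 or CX3CL1+IFN-γ replicate 3, and to 2 without any other library of these groups. CX3CL1+IFN-γ against No treatment also raised FAS, TNFSF10 and MLKL, beside 8.21% and 3.72%. Of the 7, 0 were called with CX3CL1 added to IFN-γ (1 without CX3CL1+IFN-γ replicate 2), beside 0.345% higher and 0.0168% lower. FAS had the smallest adjusted p of the 7 (0.0799), and 517 of all genes had an unadjusted p under 0.05 here. FAS was also called in this comparison after quantile normalization and with the replicate number as a block, which pairs these libraries. Between the single agents, 1 of 7 (MLKL) was higher with IFN-γ than with CX3CL1, beside 3.52% higher and 1.06% lower, and 0 of 7 without IFN-γ replicate 3. With the replicate block, which pairs these libraries too, TNFSF10 was called there as well. The comparisons share groups of libraries and are not independent of each other. As the genes were chosen with earlier results of these data known, counts above the shares over all genes are no test of the set.

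The median log2 fold change over the 7 tested genes was 0.41 with CX3CL1, beside -0.02 over all genes, and 0.19 with IFN-γ, beside 0.03. For CX3CL1+IFN-γ against No treatment it was 0.42, beside 0.02. The medians describe 7 genes and carry no test.

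**Figure D2:**
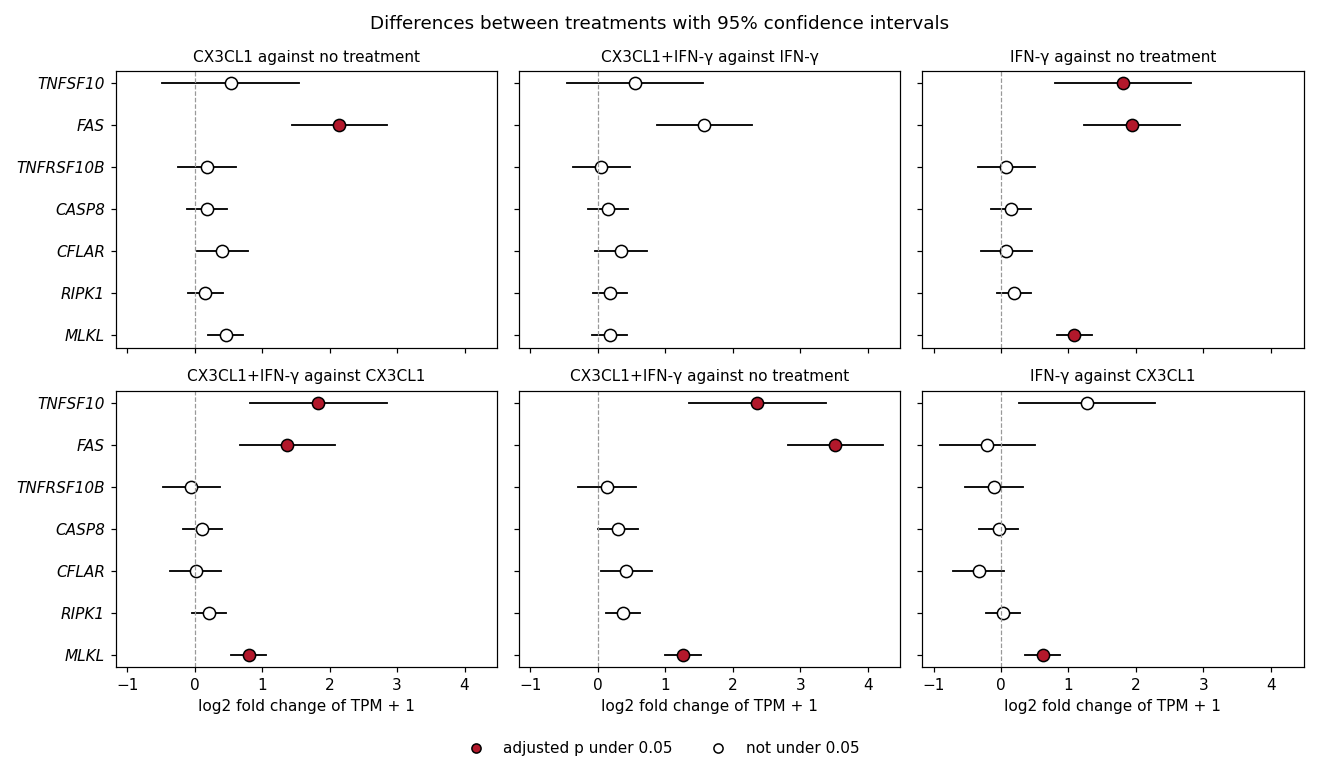
Log2 fold changes of TPM + 1 for the 7 tested genes in 6 comparisons, with 95% confidence intervals from the limma fit over all 12 libraries. Filled points passed an adjusted p of 0.05 and open points did not; the filled points are FAS, TNFSF10 and MLKL, all to the right of 0.

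Promoter sequences were taken from RefSeq (GRCm38.p6, from 250 bases before to 50 after each annotated start) and were found for 7 of the 8 genes, in 8 windows since RIPK1 had 2 starts. The 140 bases before the start are shown for the 3 genes that rose and for CASP8 and the RIPK1 start with matches, of 2 genes that passed the test in no comparison, so that the letters of both kinds can be set side by side. Capitals mark whole matches to a GAS element (TTCNNNGAA), an ISRE-type pair of repeats (GAAANNGAAA), its IRF core (AANNGAAA, which every such pair contains) or the NF-kB consensus, searched on both strands.
FAS, chr19:34290519-34290658, forward strand: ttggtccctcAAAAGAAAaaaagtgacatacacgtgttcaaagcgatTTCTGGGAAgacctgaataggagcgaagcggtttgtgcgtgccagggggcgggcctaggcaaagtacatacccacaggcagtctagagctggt
TNFSF10, chr3:27316937-27317076, forward strand: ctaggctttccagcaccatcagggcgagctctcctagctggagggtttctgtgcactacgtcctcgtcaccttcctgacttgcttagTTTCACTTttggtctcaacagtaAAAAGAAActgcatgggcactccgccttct
MLKL, chr8:111338206-111338345, reverse strand: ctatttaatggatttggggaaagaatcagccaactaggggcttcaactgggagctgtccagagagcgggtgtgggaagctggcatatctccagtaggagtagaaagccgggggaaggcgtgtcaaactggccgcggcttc
CASP8, chr1:58802362-58802501, forward strand: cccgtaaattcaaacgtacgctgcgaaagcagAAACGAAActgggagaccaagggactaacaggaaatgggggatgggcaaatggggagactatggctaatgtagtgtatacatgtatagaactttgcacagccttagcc
RIPK1 (downstream start), chr13:34002734-34002873, forward strand: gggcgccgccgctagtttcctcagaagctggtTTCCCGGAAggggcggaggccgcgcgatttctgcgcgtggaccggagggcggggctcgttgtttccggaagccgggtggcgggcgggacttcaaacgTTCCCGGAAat

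The FAS stretch held an IRF core 130 to 123 bases before the start and a GAS match 93 to 85 bases before it. The FAS window held another IRF core after the start, outside the stretch shown. TNFSF10 had 2 IRF core matches, from 53 to 46 and from 30 to 23 bases before its start. The MLKL window held no match to any of the 4 motifs. Of the genes called nowhere, CASP8 held IRF core matches 171 to 164 and 108 to 101 bases before a RefSeq start that lies inside the gene as GENCODE draws it, the downstream RIPK1 window held 2 GAS matches, 108 to 100 and 11 to 3 bases before the start, with an ISRE match across the start itself, and CFLAR had an ISRE match just after its start. The window of the upstream RIPK1 start, which lies at the GENCODE start of the gene, and the RIPK3 window held no match to any motif. Over all 32851 windows of 300 bases in the table, a GAS match was found in 8.30%, an ISRE match in 3.44%, an IRF core in 23.9% and an NF-kB consensus in 8.46%; no window of the 7 genes held the last. Matches to these motifs were therefore found both in genes that rose and in genes that were not called.

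FAS, the receptor for FAS ligand (Fas, GRCm38 chr19:34290666-34327772, forward strand), had the largest log2 difference from no treatment with CX3CL1 among the 7 tested members. With IFN-γ and with both agents its order against TNFSF10 depended on the pseudocount: at 1, FAS was ahead with IFN-γ (1.94 against 1.81), and at 0.1 it was behind (3.00 against 4.07). With both agents the values were 3.52 against 2.36 at 1, and 4.76 against 4.80 at 0.1. Its level in the untreated libraries was 0.772, 0.410 and 0.408 TPM (replicates 1, 2 and 3). With CX3CL1 it was 9.71, 4.49 and 4.18 TPM, and every library lay above every untreated one. The log2 fold change was 2.15 ± 0.33 (SE; 95% confidence interval 1.44 to 2.85; limma, adjusted p = 0.00288), a ratio of mean TPM of 11.6. With IFN-γ the level was 5.04, 2.93 and 7.41 TPM, again above every untreated library (log2 fold change 1.94 ± 0.33, adjusted p = 0.00215). The IFN-γ and CX3CL1 libraries overlapped, and the difference between the 2 agents was -0.20 with an interval from -0.91 to 0.50.

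With both agents FAS reached 20.8, 10.7 and 19.7 TPM, above every library of the other 3 groups. The mean of 17.1 ± 5.55 TPM was 32.3 times that of untreated cells (log2 fold change 3.52 ± 0.33, adjusted p = 1.1e-05). Over CX3CL1 alone the rise was 1.37 (adjusted p = 0.0301), a call that was lost without any 1 of CX3CL1 replicates 2 and 3 and CX3CL1+IFN-γ replicates 1 and 3, at adjusted p from 0.0818 to 0.129, when no filter on low TPM was set (0.0859) and with only the libraries compared in the fit (0.0602). Over IFN-γ alone the difference was 1.58 (interval 0.87 to 2.29), with no overlap between libraries, but an adjusted p of 0.0799. With the replicate number as a block, which pairs these libraries, the same difference had an adjusted p of 0.0132, and it was called without CX3CL1+IFN-γ replicate 2 as well (adjusted p = 0.0282) and after quantile normalization (0.0473). Within replicate numbers 1, 2 and 3 the difference was 1.85, 1.58 and 1.30.

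The interaction, the log2 difference of FAS with both agents less the sum of the single differences, was -0.57 ± 0.46 (interval -1.57 to 0.43; adjusted p = 1.00). No gene was called for the interaction (0% higher and 0% lower by limma; 273 genes had an unadjusted p under 0.05), and none of the 7 was near the threshold (adjusted p = 1.00 for each). The annotation places a short RNA gene, Gm27818, inside Fas on the same strand.

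FAS ligand, the partner of this receptor, was listed near 0. FASL had group means of at most 0.0228 TPM and TNF of at most 0.0201 TPM, with TNF listed at 0 in all libraries of 3 groups, and neither reached the level for testing. Of the 5 death ligand genes listed beside TNFSF10, 1 was tested and it was called in no comparison.

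TNFSF10 encodes TRAIL, the ligand of DR5 (Tnfsf10, chr3:27317028-27342427, forward strand). It rose from near 0 to a low level in the groups with IFN-γ, and its level differed widely between replicates. The untreated libraries stood at 0.0871, 0.00740 and 0.0992 TPM. The CX3CL1 libraries, at 0.336, 0.430 and 0.904 TPM, all lay above them, but on the log2(TPM + 1) scale the difference was 0.53 with an interval from -0.48 to 1.54 (limma, adjusted p = 1.00). The ratio of mean TPM was 8.63, over an untreated mean of 0.0646 TPM that lies below the filter of 0.2 TPM. Over 14 alternatives the limma difference ran from 0.38 to 1.95 and was called in none (lowest adjusted p = 0.176). With IFN-γ the level was 1.15, 2.06 and 6.89 TPM, above every untreated and every CX3CL1 library.

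TNFSF10 was among the tested genes because its treated groups lifted the mean over all libraries above the filter. The rise with IFN-γ over no treatment was 1.81 ± 0.47 (interval 0.80 to 2.82; adjusted p = 0.0316). This call was lost without any 1 of the 3 untreated libraries or of IFN-γ replicates 2 and 3, with adjusted p from 0.0517 to 0.127, and without the filter on low TPM (0.0865). With both agents TNFSF10 stood at 1.96, 3.90 and 10.3 TPM, which overlapped the IFN-γ libraries (difference 0.55, interval -0.46 to 1.57) and lay above all CX3CL1 libraries (1.83, adjusted p = 0.0429). The latter call was lost without any 1 of the CX3CL1 libraries or of CX3CL1+IFN-γ replicates 2 and 3 (adjusted p from 0.0690 to 0.165), and under median-ratio scaling (0.0551), quantile normalization (0.0667) and without the filter on low TPM (0.108). CX3CL1+IFN-γ against No treatment gave 2.36 ± 0.47 (adjusted p = 0.00428) and was called under all 14 alternatives tried.

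Replicate 3 was the highest TNFSF10 library in each of the 4 groups. Within replicate numbers, the difference of IFN-γ from no treatment was 0.98, 1.60 and 2.84 for numbers 1, 2 and 3. IFN-γ against CX3CL1 gave 1.28 (interval 0.27 to 2.29) and was not called at an adjusted p of 0.142; with the replicate block, which pairs these libraries, it was called (adjusted p = 0.0248), and the count of members called there became 2 of 7.

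TNFRSF10B, the gene of the TRAIL receptor DR5 (chr14:69767472-69784411, forward strand), was called in no comparison. It stood at 41.0, 26.4 and 31.2 TPM without treatment, 43.2, 37.0 and 31.2 with CX3CL1, 41.2, 29.8 and 32.7 with IFN-γ and 46.5, 31.3 and 30.9 with both. The groups overlapped in every comparison, and replicate 1 was the highest library of each group. Log2 fold changes of the pairwise comparisons ran from -0.10 to 0.18, with the highest interval bound at 0.61. Set against TNFRSF10B, FAS stood higher in each treated group: FAS TPM per TNFRSF10B TPM was 0.0158 ± 0.0029 without treatment, 0.160 ± 0.057 with CX3CL1, 0.149 ± 0.068 with IFN-γ and 0.477 ± 0.150 with both. Each treated group lay wholly above the untreated one, at an exact permutation p of 0.1, the smallest that 3 libraries against 3 allow. The FAS levels alone already separated in this way, so the ratio is no further test of FAS.

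CASP8 encodes the initiator caspase that death receptors activate (Casp8, chr1:58795374-58847503, forward strand). Its levels were 33.5, 28.7 and 30.2 TPM without treatment, 36.5, 40.7 and 28.9 with CX3CL1, 37.4, 32.4 and 32.9 with IFN-γ and 44.2, 35.7 and 34.7 with both. The CX3CL1+IFN-γ libraries all lay above the untreated ones, with a difference of 0.30 (interval 0.0029 to 0.59; adjusted p = 0.198), and the single-agent groups overlapped with no treatment. An unclassified gene model, Gm37760, overlaps Casp8 on the same strand.

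CFLAR, the gene of c-FLIP, is the neighbor of Casp8 on chromosome 1 (Cflar, chr1:58711508-58758884, forward strand), 36.5 kb apart with 1 annotated gene between. It stood at 53.6, 37.6 and 38.4 TPM without treatment, 65.8, 57.4 and 48.9 with CX3CL1, 46.3, 39.0 and 51.0 with IFN-γ and 67.9, 46.2 and 60.8 with both. Means were higher in both groups that received CX3CL1 than in the groups that did not, yet the libraries overlapped. The difference was 0.41 with CX3CL1 (interval 0.031 to 0.79; adjusted p = 0.536) and 0.34 when CX3CL1 was added to IFN-γ (interval -0.036 to 0.72; adjusted p = 0.975), while IFN-γ alone gave 0.08 (interval -0.30 to 0.46). The ratio of CFLAR to CASP8 TPM was 1.39 ± 0.178 without treatment, 1.63 ± 0.203 with CX3CL1, 1.33 ± 0.192 with IFN-γ and 1.53 ± 0.230 with both, and these groups overlapped.

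RIPK1, the kinase shared by the TNF receptor complex and the necrosome (Ripk1, chr13:34002363-34037147, forward strand), was called in no comparison. It stood at 33.1, 27.2 and 30.6 TPM without treatment, 33.5, 38.6 and 30.0 with CX3CL1, 35.6, 33.4 and 34.9 with IFN-γ and 44.3, 36.4 and 37.9 with both. All IFN-γ libraries and all CX3CL1+IFN-γ libraries lay above all untreated libraries, by 0.19 (adjusted p = 0.370) and by 0.37 (interval 0.12 to 0.63; adjusted p = 0.0571). The second difference passed the threshold without untreated replicate 1 (adjusted p = 0.0499) and under median-ratio scaling (0.0440). It also passed with the replicate number as a block (limma, adjusted p = 0.0312), though these groups were not taken as paired. Serpinb6a overlaps Ripk1 on the opposite strand, 1 processed pseudogene lies on each strand, and the strand setting of the counting is not stated.

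RIPK3 (Ripk3, chr14:55784995-55788865, reverse strand), the kinase that acts on MLKL, was listed at 0 in all 12 libraries, so that no difference could be tested. A listed 0 does not tell a silent gene from a failed estimate. Of 78 symbols named as ribosomal protein genes (RPL or RPS), 3 were also at 0 in every library. Whether those genes are silent in CT26 cells was not tested. TPM give no read depth, and no upper limit for RIPK3 can be set from them.

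MLKL, the pore-forming effector of necroptosis (Mlkl, chr8:111311797-111338177, reverse strand), had the highest level of the 8 genes in every library. It stood at 110, 93.4 and 109 TPM without treatment and at 138, 146 and 147 with CX3CL1, where every library lay above every untreated one. The difference was 0.46 ± 0.12 (interval 0.20 to 0.72) and was not called at an adjusted p of 0.0883. With IFN-γ MLKL rose to 209, 201 and 258 TPM, a log2 fold change of 1.08 ± 0.12 and a ratio of means of 2.14 (limma, adjusted p = 7.08e-05).

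With both agents MLKL stood at 248, 222 and 285 TPM, above every CX3CL1 library (0.80 ± 0.12, adjusted p = 0.00209) and overlapping the IFN-γ libraries (0.18, interval -0.08 to 0.44). IFN-γ gave more than CX3CL1, by 0.62 (adjusted p = 0.0118), a call that was lost without IFN-γ replicate 3 (0.51, adjusted p = 0.0605). The rises with IFN-γ over no treatment and with both agents over CX3CL1 or no treatment were called under all 14 alternatives. The 4 groups thus ran in mean from No treatment through CX3CL1 and IFN-γ to both agents, and the test called neither the step between the first 2 nor that between the last 2. A processed pseudogene, Gm45712, overlaps Mlkl on the opposite strand.

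MLKL was also set against RIPK1 and CASP8. MLKL TPM per RIPK1 TPM was 3.44 ± 0.125 without treatment, 4.27 ± 0.585 with CX3CL1, 6.43 ± 0.848 with IFN-γ and 6.41 ± 1.00 with both, and per CASP8 TPM it was 3.38 ± 0.207, 4.15 ± 0.818, 6.55 ± 1.18 and 6.68 ± 1.37. All libraries with IFN-γ lay above all libraries without it in both ratios, and exact permutation tests of each IFN-γ group against no treatment gave the smallest p possible, 0.1. The MLKL levels alone already separated in this way, so the ratios are no further test of MLKL. With CX3CL1 alone, MLKL per RIPK1 also lay wholly above no treatment (exact permutation p = 0.1). MLKL per CASP8 overlapped there (exact permutation p = 0.2).

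Beside these members, 85 other genes of the same pathways were listed, and 72 were tested. IFN-γ raised 13 of them and lowered none; CX3CL1 raised 3 (IKBKE, ZBP1 and BCL2L11) and lowered none, and CX3CL1 added to IFN-γ raised 1. The counts were 17 for CX3CL1+IFN-γ against No treatment, 5 for CX3CL1+IFN-γ against CX3CL1 and 3 for IFN-γ against CX3CL1, again with none lower, beside the percentages over all genes given above. The median log2 fold change of the 72 was 0.15 with IFN-γ and 0.06 with CX3CL1. These lists too were drawn up with earlier results of these data known, so their counts and medians carry no test.

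Among 10 necroptosis genes tested, ZBP1 changed most. ZBP1 senses Z-form nucleic acids and can recruit RIPK3 in place of RIPK1. Its mean was 6.95 ± 4.32 TPM without treatment, 41.3 ± 15.3 with CX3CL1, 330 ± 54.7 with IFN-γ and 379 ± 47.0 with both. The log2 fold change was 2.50 ± 0.35 with CX3CL1 (adjusted p = 0.00174) and 5.52 ± 0.35 with IFN-γ (adjusted p = 2.23e-06), and IFN-γ exceeded CX3CL1 by 3.02 (adjusted p = 0.000608). CHMP4B, an ESCRT-III subunit of the membrane repair that opposes MLKL, rose by 0.68 with IFN-γ, and TICAM1, the adaptor TRIF of Toll-like receptors that can engage RIPK3, stood between 8.96 and 13.8 TPM and was not called.

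Of 23 genes of the TNF receptor complex and its ubiquitin control, 6 rose and none fell with IFN-γ, beside 5.91% higher and 1.94% lower over all genes tested. RNF31, the catalytic subunit of the linear ubiquitin ligase LUBAC, rose by 1.17 (adjusted p = 7.19e-05), TNIP1, which binds linear ubiquitin, by 0.90, TNFAIP3, the ubiquitin-editing protein A20, by 0.76 and TRAF2, a RIPK1 complex adaptor, by 0.72. The others were BIRC3 and SPATA2. With CX3CL1 alone, IKBKE, a kinase of the IKK family, rose by 1.05 (adjusted p = 0.0361) from 6.81 to 15.6 TPM. TRADD, which links TNFR1 to RIPK1, was not called and had group means from 27.2 to 31.5 TPM.

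Of 7 other receptor genes tested, TNFRSF23, a TRAIL decoy receptor of the mouse, rose by 0.99 with IFN-γ (adjusted p = 0.0169). It has close paralogs, and how reads shared with them were counted is not stated. TNFRSF1B, TNFRSF1A and TNFRSF26 joined it for CX3CL1+IFN-γ against No treatment, by 1.04, 0.51 and 0.44. In that comparison 4 of the 7 were called higher and none lower, beside 8.21% higher and 3.72% lower over all genes tested. A positive log2 fold change was seen there in 5 of the 7. Among 7 adaptors, DAXX, a FAS-binding protein that also resides in PML nuclear bodies, rose by 1.77 with IFN-γ (adjusted p = 0.00206), and FADD, the adaptor of FAS and DR5, was not called (0.31 with IFN-γ, interval 0.08 to 0.54).

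Of 13 BCL2 family genes tested, 3 were higher and none lower with IFN-γ, beside 5.91% higher and 1.94% lower over all genes tested. Their median log2 fold change was 0.055 with IFN-γ and -0.029 for CX3CL1+IFN-γ against No treatment. Downstream of caspase-8, BID, whose cleavage carries the signal to mitochondria, rose by 0.50 with IFN-γ (adjusted p = 0.0317), and BAK1, which permeabilizes the outer membrane, rose by 0.43. Apart from these and BCL2L11, none of the 13 was called in any comparison. BCL2L11, the BH3-only protein BIM, was among the genes that passed with either agent: its mean rose from 6.8 ± 1.31 to 15.0 ± 0.199 TPM with CX3CL1 (1.05, adjusted p = 0.00282) and to 11.2 ± 1.70 with IFN-γ (0.65, adjusted p = 0.0254). It was also the pathway gene called when CX3CL1 was added to IFN-γ (0.90, adjusted p = 0.0327).

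**Figure D3:**
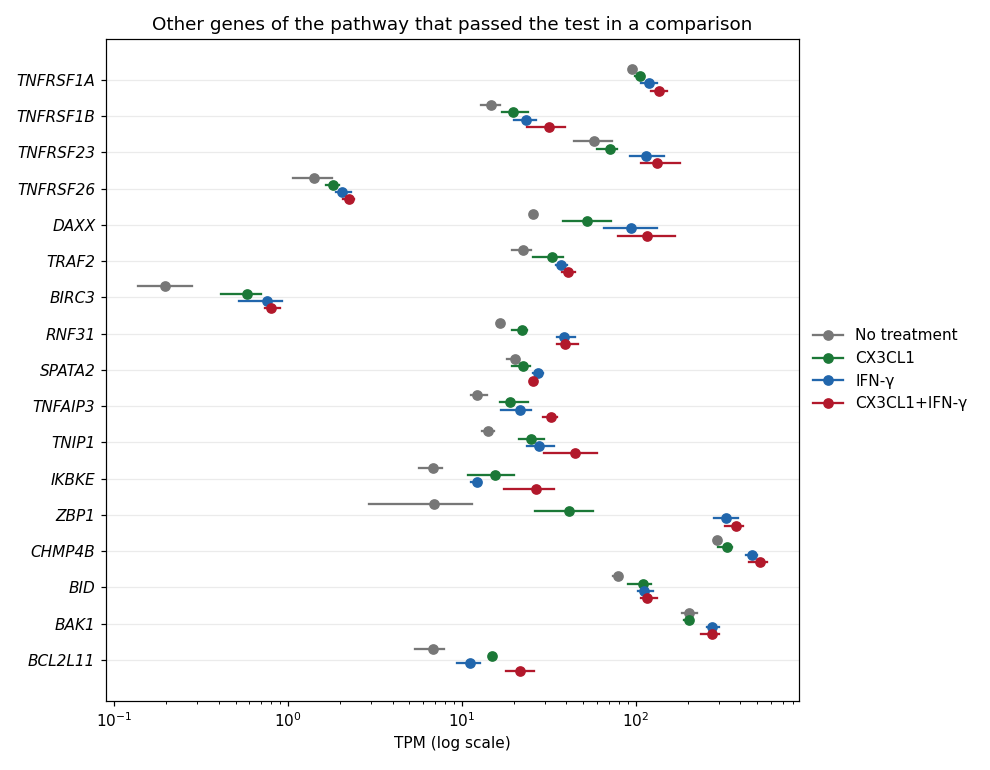
TPM (log axis) of 17 other pathway genes that passed the test in at least 1 comparison. Points are means of 3 libraries, colored by treatment, and lines run from the lowest to the highest library. ZBP1 spans the widest range, from a mean of 6.95 TPM without treatment to 379 with both agents.

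Across the 12 libraries, the genes whose log2(TPM + 1) was most like that of FAS, among 10747 genes averaging 1 TPM or more, were CCL2 (Pearson's r = 0.986), NRP2 (0.986) and PLK2 (0.985). For TNFSF10 they were MISP (0.974), NUDT13 (0.968) and RBM43 (0.967), and for MLKL SPATS2L (0.991), GBP6 (0.990) and IFI207 (0.990). The values describe 12 libraries that share their treatment groups, and no test is attached to them. For the genes called nowhere the nearest were PGM3, HSPA4L and CNST for TNFRSF10B (0.954, 0.950 and 0.947), STAM2, ZFP407 and SH3BGRL2 for CASP8 (0.944, 0.940 and 0.935), JAK2, 4930402H24RIK and CDK6 for CFLAR (0.934, 0.930 and 0.922) and DNAJC13, STK4 and LRRFIP2 for RIPK1 (0.973, 0.967 and 0.965). Among the members themselves the closest pairs were CASP8 with RIPK1 (0.919) and TNFSF10 with MLKL (0.912).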

How the data were processed

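RNA was sequenced from CT26 cells in 12 libraries (4 groups of 3, from the labels). Per the study's methods, the authors used a strand-specific mRNA kit, mapped reads to mm10 and counted them per gene in STAR 2.7.3a, then ran DESeq2 1.22.1 on the counts. The deposited values are TPM, which sum to 1000000 per library; how they were computed, the annotation and the strand setting are not given in the sources used here. TPM keep no read depth, so precision rests on the spread between replicates.

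From the TPM, limma 3.58.1 (R 4.3.3; lmFit, eBayes with an intensity trend) was fitted to log2(TPM + 1), pseudocount 1, over the 11878 genes that averaged 0.2 TPM or more, with all 12 libraries and no block. Benjamini-Hochberg adjustment was made separately for each of 6 pairwise comparisons and the interaction, and calls used an adjusted p of 0.05. The code was tested on simulated data. Ratios of TPM were compared by exact two-sided permutation tests.

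The members and the gene lists were chosen with earlier results of these data known. All members are named; of the other listed genes, those named are up to 4 per list with the largest called change and direct partners of a member, except genes that are not reported here. Likeness used Pearson's r over genes averaging 1 TPM or more.

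The fit was repeated with each library left out, with the replicate number as a block, without the trend, on the compared libraries alone, after quantile normalization or median-ratio scaling, with the filter at 1 TPM or absent, and with a pseudocount of 0.1. Same-numbered libraries were taken as paired where the correlation of their deviations from group means was above 0.1 for all 3 numbers: IFN-γ with CX3CL1+IFN-γ (0.630 to 0.649), No treatment with IFN-γ (0.220 to 0.460), CX3CL1 with IFN-γ (0.226 to 0.584) and CX3CL1 with CX3CL1+IFN-γ (0.351 to 0.428). The pairing comes from the data, since the labels name no shared day or batch.

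Gene positions are from GENCODE vM21 (GRCm38, the build named mm10), matched by symbol, and promoters from RefSeq. Tables and figures were made with Python, pandas and matplotlib.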

Additional observations from a re-analysis of the deposited data

How the results depend on the processing

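Over the tested genes and 7 contrasts, 644 alternative values kept direction and side of the threshold, 21 lost and 9 gained a call, and 47 changed sign, none of them a called value. FAS with CX3CL1 and with IFN-γ, and MLKL with IFN-γ, kept their calls under all 14 alternatives; the cause of the changes below was not tested. The design holds 3 libraries a group and no read depth, so small differences in CASP8, RIPK1, CFLAR and TNFRSF10B could not be resolved.

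With the replicate block, the genes called went from 232 to 455 for CX3CL1 against no treatment, from 43 to 95 for CX3CL1+IFN-γ against IFN-γ, from 932 to 1929 for IFN-γ against no treatment, from 558 to 1369 for CX3CL1+IFN-γ against CX3CL1, from 1417 to 2464 for CX3CL1+IFN-γ against no treatment, from 544 to 1601 for IFN-γ against CX3CL1 and from 0 to 52 for the interaction. Members called with the block were 2, 1, 3, 3, 5, 2 and 0 in the same order. No treatment and CX3CL1 (correlations 0.387, 0.00472 and 0.301), and No treatment and CX3CL1+IFN-γ (0.312, 0.447 and 0.0324), were not taken as paired; there the block added MLKL with CX3CL1 (adjusted p = 0.0158), and CFLAR and RIPK1 with both agents (0.0416 and 0.0312). Other changes by the pairing are given beside the results, and it changed no further call of a member.

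For CX3CL1+IFN-γ against IFN-γ, 28 genes were called without the filter and 20 with only the libraries compared, and quantile normalization added 1 member, FAS (adjusted p = 0.0473). With only the libraries compared, 344 genes were called for CX3CL1+IFN-γ against CX3CL1, where FAS was lost (0.0602), and 252 for IFN-γ against CX3CL1. Without the filter, 1 member remained called for CX3CL1+IFN-γ against CX3CL1 (FAS 0.0859, TNFSF10 0.108), and TNFSF10 was lost for IFN-γ against no treatment (0.0865). Quantile normalization gave 1 gene for the interaction. Calls split into higher and lower as 702 and 230 for IFN-γ against no treatment (642 and 349 with median-ratio scaling, 556 and 536 with quantile normalization), 447 and 111 for CX3CL1+IFN-γ against CX3CL1 (360 and 185, 349 and 228), 418 and 126 for IFN-γ against CX3CL1 (305 and 240, 278 and 236), and 975 and 442 for CX3CL1+IFN-γ against no treatment (797 and 888 with quantile normalization).

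With each library left out in turn, genes called ranged from 152 (without No treatment replicate 3) to 268 for CX3CL1 against no treatment, from 16 (without CX3CL1+IFN-γ replicate 3) to 54 for CX3CL1+IFN-γ against IFN-γ, from 530 (without No treatment replicate 3) to 764 for IFN-γ against no treatment, from 270 (without CX3CL1+IFN-γ replicate 3) to 668 for CX3CL1+IFN-γ against CX3CL1, from 924 (without CX3CL1+IFN-γ replicate 3) to 1345 for CX3CL1+IFN-γ against no treatment, from 185 (without IFN-γ replicate 3) to 457 for IFN-γ against CX3CL1, and from 0 to 11 (without No treatment replicate 1) for the interaction. Members called ranged from 1 to 1, 0 to 1, 2 to 3, 1 to 2, 3 to 4, 0 to 1 and 0 to 0.

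Uncalled log2 fold changes that turned sign under another setting were CFLAR for CX3CL1+IFN-γ against CX3CL1 (median-ratio scaling -0.051, quantile normalization -0.039), RIPK1 for IFN-γ against CX3CL1 (-0.036 and -0.024), and in the interaction TNFSF10 (pseudocount 0.1, -1.22) and RIPK1 (median-ratio scaling -0.0025). With single libraries left out, TNFRSF10B ranged from -0.14 to 0.18 for CX3CL1+IFN-γ against IFN-γ, -0.061 to 0.25 for IFN-γ against no treatment, -0.24 to 0.062 for CX3CL1+IFN-γ against CX3CL1, -0.056 to 0.30 for CX3CL1+IFN-γ against no treatment, -0.23 to 0.010 for IFN-γ against CX3CL1 and -0.32 to 0.011 in the interaction. CFLAR ranged from -0.0067 to 0.24 for IFN-γ against no treatment, -0.10 to 0.17 for CX3CL1+IFN-γ against CX3CL1 and -0.23 to 0.089 in the interaction. CASP8 ranged from -0.021 to 0.22 for CX3CL1+IFN-γ against CX3CL1, -0.17 to 0.068 for IFN-γ against CX3CL1 and -0.17 to 0.073 in the interaction. FAS ranged from -0.47 to 0.13 and RIPK1 from -0.054 to 0.12 for IFN-γ against CX3CL1, and in the interaction RIPK1 ranged from -0.061 to 0.12 and TNFSF10 from -0.50 to 0.56.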
